A study of Mus musculus with 8 samples.

Results

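The 8 genes described here belong to the machinery that fills and seals the cavity of the mouse blastocyst. They are the ion pump subunit Atp1b1, the channel genes Aqp3, Aqp8 and Aqp9, the tight junction genes Tjp1, Cldn4 and Cldn6, and the adhesion gene Cdh1. They were chosen by symbol out of 22810 genes with deposited counts. All 8 are autosomal, and all 8 were among the 12565 autosomal genes with 10 or more reads from 1 allele of 1 embryo or more. The RNA came from single blastocysts of embryonic day 3.5, obtained by natural mating of C57BL/6 (B6) with Mus musculus castaneus (cast) mice and lysed without culture. The forward cross had a B6 mother and a cast father and gave 3 embryos, numbered 1, 2 and 3. The reverse cross had a cast mother and a B6 father and gave 5 embryos, numbered 1, 2, 3, 5 and 7. Whole embryos were measured, so trophectoderm and inner cell mass are mixed in each library, and the embryos were not matched for sex. A lower level of a gene in such a library can mean fewer cells of a type or less RNA per cell, and these cannot be told apart.

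The blastocyst cavity, or blastocoel, forms when the outer epithelium of the embryo, the trophectoderm, moves sodium inward with the Na/K-ATPase on its basolateral membrane. Water follows through aquaporins, and tight junctions between the outer cells keep the fluid from leaking out. Claudins form the strands of tight junctions, Tjp1 (ZO-1) is a scaffold that ties these strands to the actin cytoskeleton, and E-cadherin, the product of Cdh1, joins the cells of the embryo from compaction on. In the mm10 genome with GENCODE M21 annotation, Atp1b1 lies on chromosome 1 from 164437109 to 164458355, Aqp3 on chromosome 4 from 41092722 to 41098183, and Aqp8 on chromosome 7 from 123462291 to 123468004. Aqp9 lies on chromosome 9 from 71110659 to 71168682, and Tjp1 on chromosome 7 from 65296165 to 65527781. Cldn4 lies on chromosome 5 from 134945119 to 134946934, Cldn6 on chromosome 17 from 23679249 to 23682446, and Cdh1 on chromosome 8 from 106603351 to 106670246.

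Each embryo was represented by the reads of its B6 allele and of its cast allele, and the SNP-spanning reads of an embryo summed to between 1060063 and 1632695, of which 57.4% to 58.3% came from B6. Reverse embryo 1 stood apart from the others. Over 5608 genes with at least 20 reads in every embryo, its median correlation with the other embryos was 0.616, against 0.864 to 0.906 for the rest. The 11 trophectoderm markers summed to 2616 CPM (the reads of a gene scaled to a common total of SNP-spanning reads per embryo, as in counts per 1e6) in reverse embryo 1 and to 5808 to 7922 CPM in the other 7 embryos. The 8 epiblast markers (722 to 1118 CPM) and the 8 primitive endoderm markers (545 to 818 CPM) were within the range of the other embryos there, at 854 and 803 CPM. Results are therefore also given without reverse embryo 1. Markers of leukocytes and macrophages, 11 genes in all, summed to 880 CPM in forward embryo 1, to 40.8 and 56.4 CPM in the other forward embryos, and to 3.8 to 7.3 CPM in the reverse embryos, and 98.4% of their reads were maternal. Oocyte (4.7 to 19.0 CPM), cumulus (4.0 to 22.0 CPM) and red blood cell markers (0.0 to 0.9 CPM) were at low sums in every embryo. Uterine and oviduct epithelium markers summed to 87.6 to 185.6 CPM, and 896 of their 1273 reads were of Wfdc2.

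The regions before the start sites of the 4 genes with the largest strain differences among the 8 are shown, since strain gave the clearest result below. They come from RefSeq on build GRCm38.p6, where each holds the 250 bases before the start in the direction of transcription. Bases that GENCODE places inside the gene are not printed, which leaves 134 for Cldn6 and 247 for Aqp8. The printed stretches are chr5:134946935-134947184 on the minus strand for Cldn4, chr17:23679115-23679248 on the plus strand for Cldn6, chr4:41098184-41098433 on the minus strand for Aqp3 and chr7:123462044-123462290 on the plus strand for Aqp8. The sequence is the reference, so it does not show where cast differs. Capitals mark every match on either strand. The motif of TEAD factors was searched as GGAATG, that of TFAP2 factors as GCCNNNGGC and that of GATA factors as AGATAA. The TATA box was searched as TATAAA and the GC box as GGGCGG, which reads CCGCCC on the opposite strand.
Cldn4: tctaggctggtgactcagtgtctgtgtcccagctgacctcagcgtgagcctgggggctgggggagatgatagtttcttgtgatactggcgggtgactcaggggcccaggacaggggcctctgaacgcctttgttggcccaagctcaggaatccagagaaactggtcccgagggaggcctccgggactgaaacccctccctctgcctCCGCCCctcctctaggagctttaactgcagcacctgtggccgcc
Cldn6: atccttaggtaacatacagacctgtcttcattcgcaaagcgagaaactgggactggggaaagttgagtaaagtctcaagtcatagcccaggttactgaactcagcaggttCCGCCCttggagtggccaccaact
Aqp3: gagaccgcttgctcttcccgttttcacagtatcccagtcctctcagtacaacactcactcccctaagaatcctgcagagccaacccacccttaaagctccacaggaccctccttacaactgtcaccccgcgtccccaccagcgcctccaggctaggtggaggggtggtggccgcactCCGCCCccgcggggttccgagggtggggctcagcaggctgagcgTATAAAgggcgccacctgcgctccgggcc
Aqp8: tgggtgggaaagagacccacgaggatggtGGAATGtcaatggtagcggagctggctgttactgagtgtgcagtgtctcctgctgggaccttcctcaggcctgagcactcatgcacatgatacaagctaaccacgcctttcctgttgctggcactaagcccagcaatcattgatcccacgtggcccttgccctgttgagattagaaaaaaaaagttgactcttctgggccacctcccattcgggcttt
In the whole windows Cldn4 held 1 GC box, Cldn6 held 2, of which 1 is printed, and Aqp3 held 1 GC box as well as a TATA box that begins 29 bases before the start. Aqp8 held the letters of the TEAD motif 221 bases before its start and no other match. Across 32817 promoters of the same length, 32.7% held a GC box, 12.6% the TEAD letters, 13.7% the TFAP2 letters, 12.4% the TATA box and 9.99% the GATA letters. Of the other members, Atp1b1 and Tjp1 held 2 GC boxes each and the 2 Aqp9 promoters held no match, while 7 of the 8 genes had an entry and Cdh1 had none. A match describes letters in the window and is not a measured binding site.

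**Figure D1:**
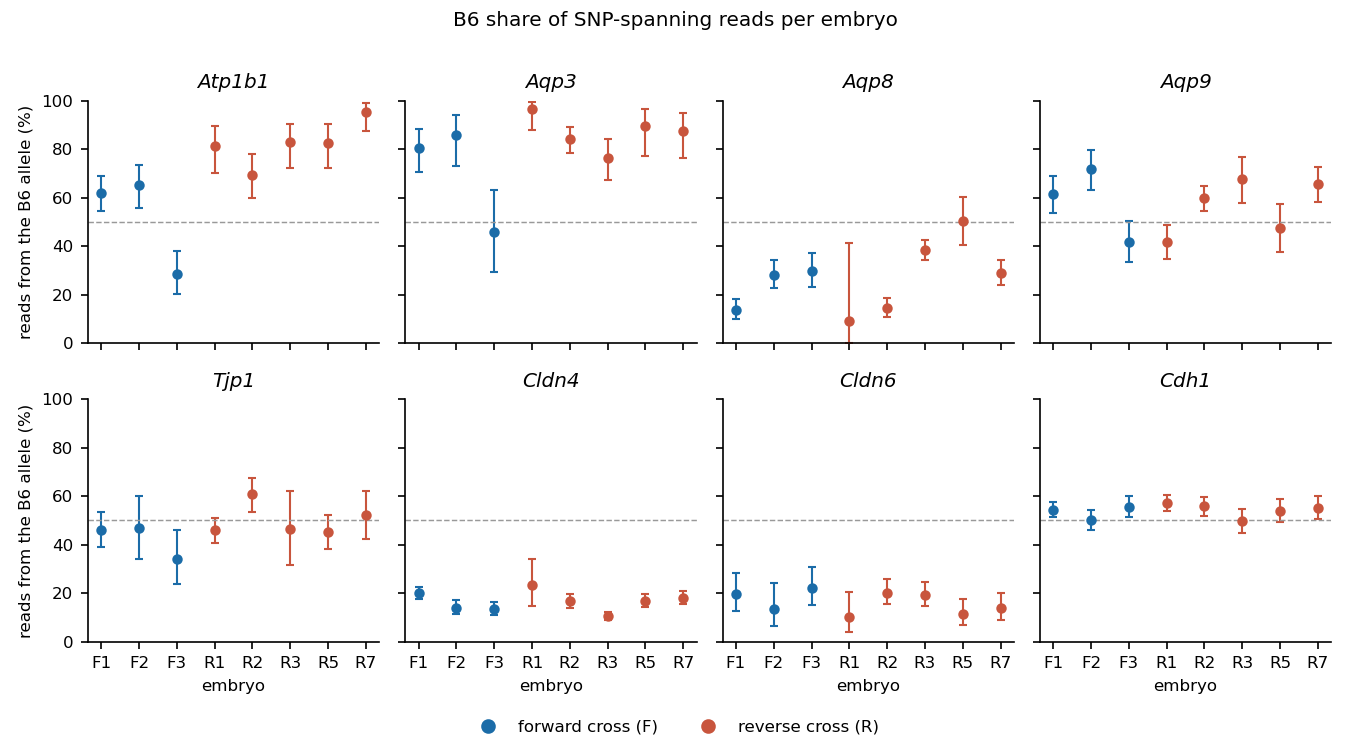
Percentage of SNP-spanning reads from the B6 allele (vertical axis) in each of the 8 embryos (horizontal axis, F forward and R reverse cross) for the 8 genes. Points are single embryos, bars are exact 95% Clopper-Pearson intervals and the dashed line marks 50%. Cldn4 and Cldn6 stayed between 10% and 23.5% in every embryo, Cdh1 stayed between 49.8% and 57.4%, and Atp1b1 was higher in the reverse embryos than in the forward embryos.

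The reciprocal crosses were made to tell maternal from paternal alleles independently of the strain. Reads of the 16 allele libraries were compared with the quasi-likelihood test of edgeR, with strain and parent as terms and adjusted p-values over all 12565 genes, and a call required an adjusted p of at most 0.1. Of the 8 genes, none was called for parent of origin, while 179 of all genes, or 1.42%, were. At an unadjusted p under 0.05 there was 1, Atp1b1, and DESeq2 called 0 of the 8. By strain, 3 of the 8 were called. Each allele library was scaled to its own size, so a strain difference is relative to the B6 share of all reads. A gene can therefore be called higher from cast without having more cast than B6 reads. Cldn4 and Cldn6 were higher from cast, in a direction called for 4.46% of all genes, and Aqp3 was higher from B6, called for 11%. The alleles of an embryo share that embryo's RNA, and a model with embryo terms (1 term per embryo) called 6 of the 8 by strain. It added Aqp8 and Tjp1 on the cast side, where it called 9.7% of all genes, and Atp1b1 on the B6 side, where it called 15.8%. The same model called Atp1b1 as paternally higher, a call it made for 2.08% of all genes. Without reverse embryo 1 the main model called 4 of the 8 by strain, Aqp8 being the addition, and 0 by parent. Over all genes the strain calls rose from 1947 to 2453 in that fit, and the parental calls from 179 to 195.

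**Figure D2:**
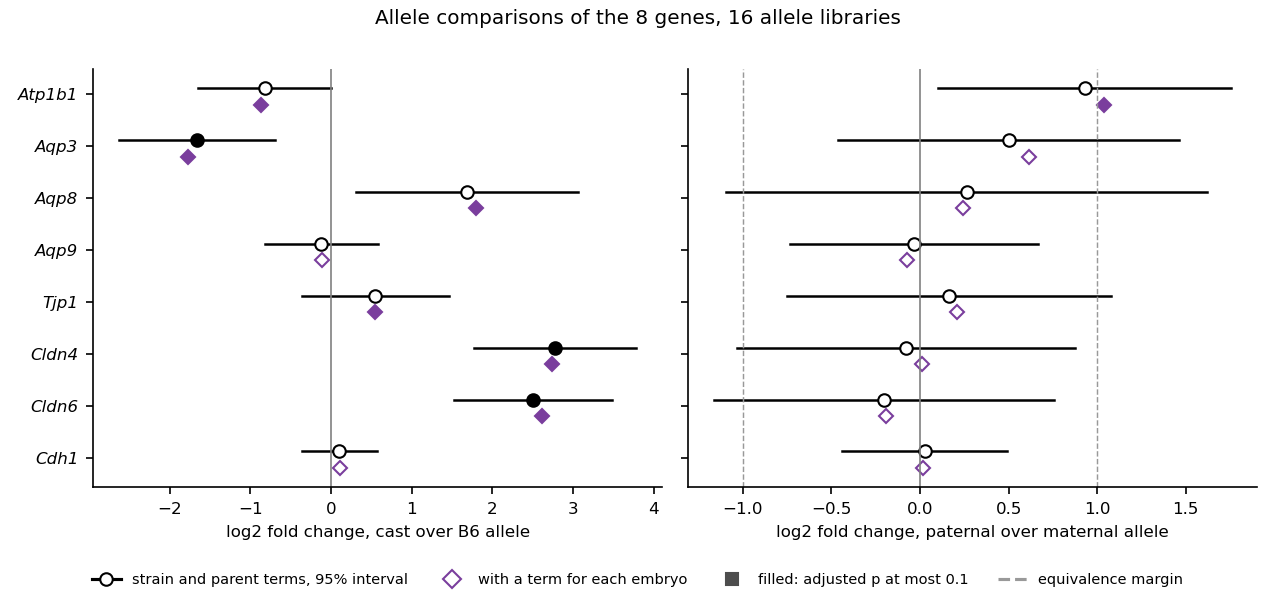
Log2 fold change of the 8 genes between cast and B6 alleles (left) and between paternal and maternal alleles (right). Black circles with 95% intervals come from the model with strain and parent, purple diamonds from the model with embryo terms, and filled symbols passed an adjusted p of 0.1. The claudins lie at 2.78 and 2.50 on the left, and on the right Atp1b1 lies farthest from 0, at 0.93.

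Atp1b1 encodes the beta subunit of the Na/K-ATPase, which the pump needs to reach the membrane. It leaned to the paternal B6 allele in every reverse embryo, while the forward embryos differed among themselves. The B6 and cast alleles gave 115 and 70 reads in forward embryo 1, 77 and 41 in forward embryo 2, and 31 and 77 in forward embryo 3. In reverse embryos 1, 2, 3, 5 and 7 the B6 allele gave 57, 73, 63, 62 and 64 reads, and the cast allele 13, 32, 13, 13 and 3. The B6 share was thus 28.7% to 65.3% in the forward and 69.5% to 95.5% in the reverse cross, and forward embryo 3 was the only embryo with more reads from cast. The paternal allele exceeded the maternal allele by a log2 fold change of 0.93 ± 0.40 (SE, 16 allele libraries, 95% interval 0.10 to 1.76, edgeR adjusted p = 0.536). Cast differed from B6 by -0.82 ± 0.40 (edgeR adjusted p = 0.211). With embryo terms both values passed the threshold, at 1.04 ± 0.30 (edgeR adjusted p = 0.0706) for parent and -0.87 ± 0.30 (edgeR adjusted p = 0.0418) for strain. The parental value rested in part on forward embryo 3: without it the log2 fold change was 0.63 (edgeR adjusted p = 0.9998), and without reverse embryo 1 it was 0.91 (edgeR adjusted p = 0.450). Atp1b1 shares exon bases with Nme7 on the opposite strand, which had 1112 reads with 34.1% from B6. Whether the counting used strand is not given in the sources used here, so the allele reads of Atp1b1 are uncertain to that extent.

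The list of Na/K-ATPase and related pump subunits with their FXYD regulators held 17 genes, of which 15 had counts and 10 were tested. None was called by parent of origin in the main model (lowest edgeR adjusted p = 0.536), and with embryo terms Atp1b1 alone was. By strain, 4 were higher from cast and 1 from B6, in directions called for 4.46% and 11% of all genes. Embryo terms gave 3 and 3, against 9.7% and 15.8% of all genes. The median strain log2 fold change of the list in the main model was 0.83, against -0.06 for all genes. Fxyd4, a small regulator of the Na/K-ATPase, had the most reads of the list, and its cast reads exceeded its B6 reads in 8 of 8 embryos. Its B6 allele gave between 17 and 146 reads and its cast allele between 666 and 1344, a log2 fold change of 3.70 ± 0.34 (edgeR adjusted p = 2.98e-08). Fxyd6 was also higher from cast, at 1.57 ± 0.38 (edgeR adjusted p = 0.00684), and Fxyd5 was higher from B6, at -2.67 ± 0.96 (edgeR adjusted p = 0.0668) on 89 reads. The gastric proton pump subunits Atp4b (1 B6 and 107 cast reads, ratio 107, exact counting interval 18.8 to 4265) and Atp4a (3 B6 and 29 cast reads, ratio 9.67, exact counting interval 3.00 to 49.6) were the other called genes, the latter only in the model without the embryo term.

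Atp1b3, the other tested beta subunit of the Na/K-ATPase, leaned to B6 by -0.49 ± 0.27 (edgeR adjusted p = 0.304), and the model with embryo terms called it (edgeR adjusted p = 0.0818). Among 16 sodium-proton exchangers and other ion channels and transporters, 8 were tested, 0 were called by parent (lowest edgeR adjusted p = 0.601) and 1 by strain. This was Slc9a3r1, a scaffold of the exchanger Slc9a3, with 1887 B6 and 878 cast reads and a log2 fold change of -0.81 ± 0.26 (edgeR adjusted p = 0.0501). The median strain value of this list was -0.53, and 11% of all genes were called higher from B6.

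Aqp3, a channel for water and glycerol, was read mainly from the B6 allele in both crosses. In forward embryos 1, 2 and 3 the B6 allele gave 67, 43 and 17 reads and the cast allele 16, 7 and 20. In reverse embryos 1, 2, 3, 5 and 7 the B6 allele gave 56, 158, 82, 43 and 50 reads and the cast allele 2, 29, 25, 5 and 7. The B6 share was 76.6% to 96.6% in 7 of 8 embryos and 45.9% in forward embryo 3, whose interval of 29.5% to 63.1% lies below the pooled share of 82.3%. Cast was lower than B6 by a log2 fold change of -1.66 ± 0.47 (95% interval -2.63 to -0.69, edgeR adjusted p = 0.0205). The call was lost without forward embryo 1 (edgeR adjusted p = 0.145) and without forward embryo 2 (edgeR adjusted p = 0.132), and it held without reverse embryo 1 at -1.59 (edgeR adjusted p = 0.00935). The parental value was 0.50 ± 0.46 (95% interval -0.46 to 1.46), an interval that includes both 0 and a log2 fold change of 1.

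Aqp8, a water channel, went the other way and had more cast than B6 reads in 7 of 8 embryos. In forward embryos 1, 2 and 3 the B6 allele gave 39, 74 and 54 reads and the cast allele 246, 187 and 126. The B6 allele gave 1, 48, 233, 53 and 90 reads in reverse embryos 1, 2, 3, 5 and 7, and the cast allele 10, 281, 373, 52 and 222. The B6 share ranged from 9.09% on 11 reads in reverse embryo 1 to 50.5% in reverse embryo 5, and in 4 of 8 embryos its interval excluded the pooled share of 28.3%. The strain log2 fold change was 1.69 ± 0.67 (95% interval 0.31 to 3.07, edgeR adjusted p = 0.112), so the main model made no call. It was called with embryo terms, at 1.79 ± 0.24 (edgeR adjusted p = 2.88e-06), and without reverse embryo 1, at 1.68 (edgeR adjusted p = 0.0116). The parental value of 0.26 ± 0.66 had an interval of -1.09 to 1.62.

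Aqp9, a channel for water, glycerol and other small solutes, had no called allele difference, yet its B6 share moved between embryos. In forward embryos 1, 2 and 3 the B6 allele gave 102, 88 and 57 reads and the cast allele 64, 34 and 79. In reverse embryos 1, 2, 3, 5 and 7 the B6 allele gave 86, 217, 70, 50 and 116 reads and the cast allele 120, 145, 33, 55 and 60. The share ran from 41.7% in reverse embryo 1 to 72.1% in forward embryo 2, and in 5 of 8 embryos its interval excluded the pooled 57.1%. Strain gave -0.12 ± 0.34 (edgeR adjusted p = 0.891) and parent -0.03 ± 0.34 (95% interval -0.73 to 0.67), and the parental alleles passed the equivalence test described below (edgeR adjusted p = 0.0328). The intron-overlapping gene Gm32511 on the opposite strand had 76 reads. The level of Aqp9 was 102 CPM in forward embryo 1, where the leukocyte markers were highest, and 106 CPM in each of the other forward embryos.

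Of 12 aquaporin genes, 7 had counts and 5 were tested, with 0 called by parent (lowest edgeR adjusted p = 0.619). By strain 1 was higher from cast and 2 from B6, against 4.46% and 11% of all genes. With embryo terms there were 2 and 2, against 9.7% and 15.8% of all genes. The median of -0.12 was that of Aqp9 also when Aqp7 was set at its bound. Aqp7, another channel for water and glycerol, had 117 B6 and 0 cast reads, which allows a cast share of up to 2.56%, and cast was at least 28.4-fold lower by a floor of 3 reads over all embryos (edgeR adjusted p = 0.0155). Of these reads 62 came from reverse embryo 7 and 40 from reverse embryo 2, and the other 6 embryos had 4 or fewer each. Mip, the aquaporin of the eye lens, had 1 B6 and 38 cast reads (ratio 38.0, exact counting interval 6.42 to 1540, edgeR adjusted p = 0.0105).

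Cldn4 and Cldn6, which form tight junction strands, were the members with the strongest strain difference, and both were read mainly from cast whichever parent gave that allele. For Cldn4, the B6 allele gave 219, 80 and 94 reads in forward embryos 1, 2 and 3, and the cast allele 881, 490 and 606. In reverse embryos 1, 2, 3, 5 and 7 the B6 allele of Cldn4 gave 19, 114, 156, 126 and 151 reads, and the cast allele 62, 574, 1313, 626 and 691. Cast was ahead in 8 of 8 embryos, with a B6 share of 10.6% to 23.5%. The log2 fold change was 2.78 ± 0.49 (95% interval 1.78 to 3.79, edgeR adjusted p = 0.000299), or 6.87-fold, and only 0.617% of 8099 genes had a lower pooled B6 share than the 15.5% of Cldn4. These were the tested genes with at least 20 reads per embryo on average, and their median B6 share was 55.6%.

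For Cldn6, the B6 allele gave 22, 9 and 27 reads in forward embryos 1, 2 and 3, and the cast allele 90, 57 and 94. In reverse embryos 1, 2, 3, 5 and 7 the B6 allele of Cldn6 gave 6, 52, 54, 17 and 23 reads, and the cast allele 54, 205, 226, 132 and 144. Its B6 share lay between 10% and 22.3%, and no embryo's interval excluded the pooled 17.3%. The log2 fold change was 2.50 ± 0.47 (95% interval 1.53 to 3.48, edgeR adjusted p = 0.000686), or 5.67-fold. Both strain calls held in all 15 alternatives tried, Cldn4 between 2.46 and 2.91 and Cldn6 between 2.18 and 2.62. The difference between parents was -0.08 ± 0.46 for Cldn4 (95% interval -1.03 to 0.88) and -0.20 ± 0.46 for Cldn6 (95% interval -1.17 to 0.76).

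Among 29 claudin genes, 20 had counts and 9 were tested. By strain 2 were higher from cast, Cldn4 and Cldn6, and 1 from B6, against 4.46% and 11% of all genes. The median was 0.93 against -0.06 for all genes. With embryo terms Cldn3 (0.74, edgeR adjusted p = 0.00841) was a further gene higher from cast, and it is named here after its values were seen. Cldn18 had 213 B6 and 2 cast reads, a ratio of 106 with an exact counting interval of 29.1 to 885. It was called for strain (edgeR adjusted p = 8.59e-06) and for parent, with the paternal allele higher by a log2 fold change of 2.73 ± 0.67 (edgeR adjusted p = 0.0277). With embryo terms the log2 fold change was 2.81 and not called (edgeR adjusted p = 0.195). The maternal B6 allele had more reads in 3 of 3 forward embryos and the paternal B6 allele in 5 of 5 reverse embryos, and 102 of the B6 reads came from reverse embryo 1. In the forward cross Cldn18 had 18 reads, 2 of them paternal, and in the reverse cross 197, 197 of them paternal. Its total level differed between crosses by a log2 fold change of 2.58 (edgeR adjusted p = 0.281). The main model has no term for cross, and the part of the total level in the parental value was not tested.

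Tjp1, the scaffold ZO-1, was read about equally from both alleles. In forward embryos 1, 2 and 3 the B6 allele gave 86, 29 and 26 reads and the cast allele 100, 33 and 50. The B6 allele gave 177, 119, 21, 92 and 56 reads in reverse embryos 1, 2, 3, 5 and 7, and the cast allele 209, 77, 24, 111 and 51. The B6 share was 34.2% in forward embryo 3, 60.7% in reverse embryo 2 and 45.3% to 52.3% in the other 6. The strain log2 fold change was 0.55 ± 0.44 (95% interval -0.36 to 1.46, edgeR adjusted p = 0.517), and with embryo terms it was 0.55 ± 0.20 and called (edgeR adjusted p = 0.0498). The parental value was 0.16 ± 0.44 (95% interval -0.75 to 1.08). It missed the equivalence test by a narrow margin, with an adjusted p of 0.1002, and passed it without reverse embryo 1 (edgeR adjusted p = 0.0584).

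Of 18 genes for tight junction scaffolds and other junction membrane proteins, 17 were tested, 0 were called by parent (lowest edgeR adjusted p = 0.640) and 2 by strain. Over all genes 4.46% were called higher from cast and 11% from B6. The median strain value of the list was 0.22. Cgn (cingulin), which links tight junctions to the cytoskeleton, had 312 B6 and 91 cast reads, a log2 fold change of -1.44 ± 0.33 (edgeR adjusted p = 0.00401). Jam2, an adhesion molecule of tight junctions, had 638 B6 and 759 cast reads and a value of 0.65 ± 0.25 (edgeR adjusted p = 0.0963). With embryo terms 4 genes were higher from cast and 1 from B6, against 9.7% and 15.8% of all genes. Ocln (occludin) had a paternal log2 fold change of 0.73 ± 0.34 (edgeR adjusted p = 0.640), and with embryo terms it was 0.82 ± 0.29 (edgeR adjusted p = 0.199). Between strains Ocln, with 370 B6 and 388 cast reads, was at 0.57 ± 0.34 (edgeR adjusted p = 0.341). With embryo terms its strain value was 0.69 ± 0.29 and called (edgeR adjusted p = 0.0993).

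Cdh1, the gene of E-cadherin, had the narrowest range of allele shares of the 8 genes. In forward embryos 1, 2 and 3 the B6 allele gave 558, 288 and 300 reads and the cast allele 468, 287 and 239. In reverse embryos 1, 2, 3, 5 and 7 the B6 allele gave 525, 349, 206, 238 and 246 reads and the cast allele 390, 275, 208, 202 and 199. The B6 share was 50.1% to 55.7% in the forward and 49.8% to 57.4% in the reverse cross, where B6 gave 57.4% to 58.3% of all reads. Cast over B6 was 0.10 ± 0.23 (95% interval -0.37 to 0.57, edgeR adjusted p = 0.861), -0.24 when both alleles of an embryo were given 1 library size, and paternal over maternal 0.03 ± 0.23 (95% interval -0.44 to 0.49). All 17 genes of the adherens junction list were tested, with 0 called by parent (lowest edgeR adjusted p = 1.0) and 1 by strain, and the median strain value was 0.12. The called gene was Epcam, an epithelial adhesion molecule, with 6519 B6 and 2858 cast reads and a log2 fold change of -0.86 ± 0.27 (edgeR adjusted p = 0.0412). With embryo terms 2 genes of the list were higher from cast and 1 from B6, against 9.7% and 15.8% of all genes. In the main model these shares of all genes were 4.46% and 11%. The catenins that tie cadherin to actin were not called by strain in the main model, at 0.27 ± 0.21 for Ctnna1 and 0.24 ± 0.21 for Ctnnb1. The model with embryo terms called Ctnna1 on the cast side (0.26, edgeR adjusted p = 0.0392). Its reads were 4305 from B6 and 4150 from cast, so it was called higher from cast without having more cast than B6 reads.

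**Figure D3:**
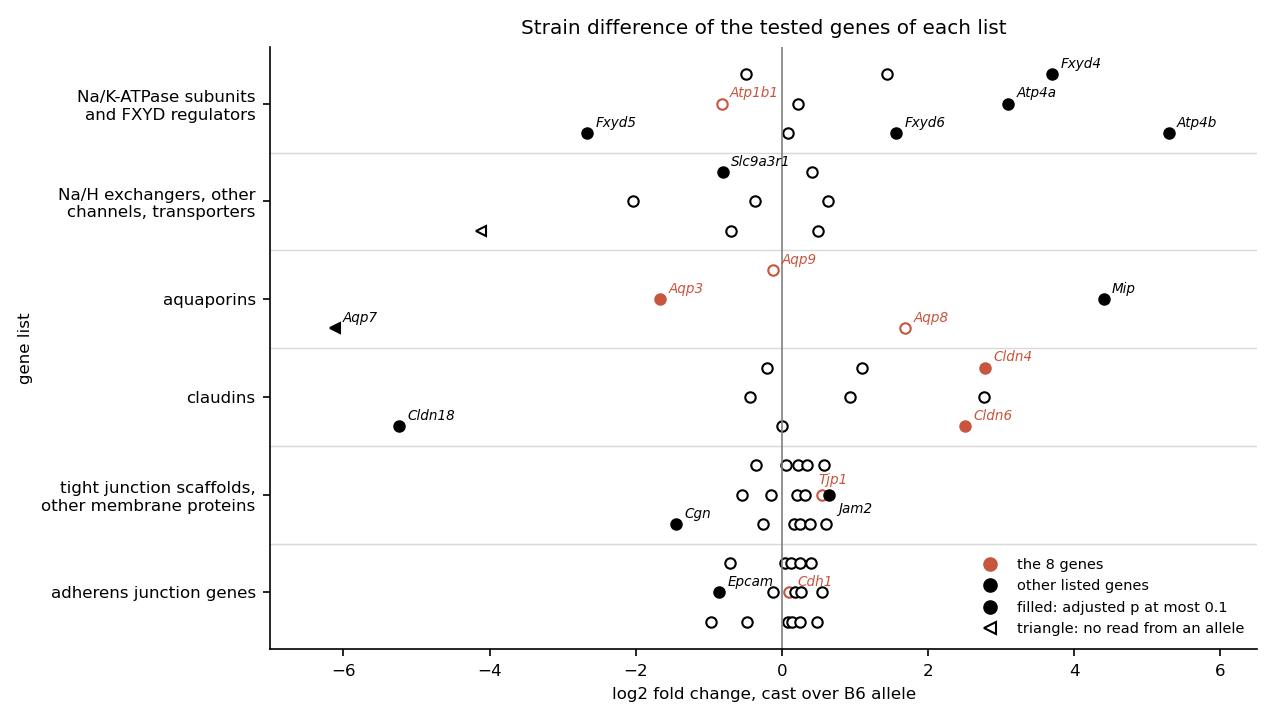
Log2 fold change between cast and B6 alleles (horizontal axis) for each tested gene of the 6 gene lists (vertical axis, points offset for legibility). The 8 genes are red, filled symbols passed an adjusted p of 0.1, and triangles mark genes without a read from an allele, whose fitted value is no bound. Claudin and pump genes reach far to both sides, while scaffold and adherens junction genes lie between -1.44 and 0.65.

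The study also asked which genes are expressed equally from both parents, and this was tested against a log2 fold change of 1 in either direction. Of the 8 genes, 3 passed, Cdh1 (edgeR adjusted p = 0.0167), Aqp9 (edgeR adjusted p = 0.0328) and Cldn4 (edgeR adjusted p = 0.0885), against 35.6% of all genes. Without reverse embryo 1 there were 5, with Tjp1 and Cldn6 added, while the count over all genes rose from 4475 to 5660. With embryo terms 6 of the 8 passed, against 45.3% of all genes, and Atp1b1 (edgeR adjusted p = 0.667) and Aqp3 (edgeR adjusted p = 0.249) did not. The call of Cldn4 was lost when any embryo other than reverse embryo 1 was left out (edgeR adjusted p = 0.101 to 0.193), and that of Aqp9 without forward embryo 2 (edgeR adjusted p = 0.122) or forward embryo 3 (edgeR adjusted p = 0.169). Of the tested genes, 11 of 17 passed in both the scaffold and the adherens junction list, and 3 of 10, 2 of 8, 1 of 5 and 1 of 9 in the pump, transporter, aquaporin and claudin lists.

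**Figure D4:**
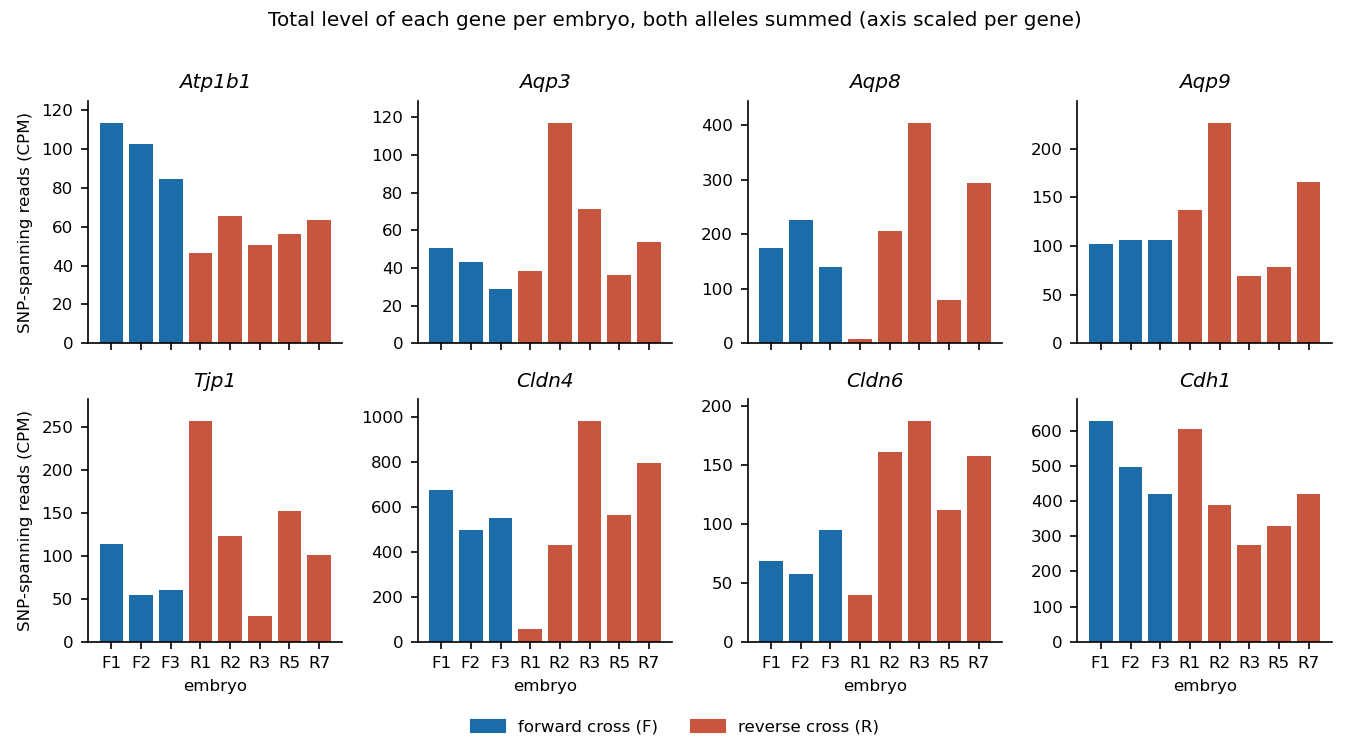
Total level of each of the 8 genes, both alleles summed, in CPM of SNP-spanning reads (vertical axis, scaled per gene and starting at 0) in each embryo (horizontal axis). The 3 forward embryos lie above the 5 reverse embryos for Atp1b1, and reverse embryo 1 is lowest for Aqp8, Cldn4 and Cldn6 and highest for Tjp1.

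Total levels were then compared between crosses with both alleles summed. Levels are compared only within a gene, since genes differ in length and in the number of SNPs. None of the 8 genes was called, against 13 of all genes, or 0.103%, while 1 had an unadjusted p under 0.05 and DESeq2 called 0. That gene was Atp1b1, at 113, 102 and 84.5 CPM in forward embryos 1, 2 and 3 and at 46.5, 65.7, 50.7, 56.3 and 63.2 CPM in reverse embryos 1, 2, 3, 5 and 7. The reverse cross was lower by a log2 fold change of -0.81 ± 0.29 (95% interval -1.43 to -0.18, edgeR adjusted p = 0.550), and 8.89% of all genes had a decrease at least as large. The leukocyte and macrophage markers were also higher in the forward embryos, as given above, and their part in the level of Atp1b1 was not tested. Cldn6 was at 68.6, 57.3 and 94.7 CPM in the forward embryos and at 39.9, 161, 187, 112 and 158 CPM in the reverse embryos, a log2 fold change of 0.89 ± 0.48 (edgeR adjusted p = 0.704). Without reverse embryo 1, Cldn6 was called at 1.15 (edgeR adjusted p = 0.0868). That fit called 163 genes in all.

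Aqp8 had the largest spread over the 8 embryos, a rank that rested on reverse embryo 1. It was at 175, 227 and 141 CPM in the forward embryos and at 7.31, 206, 404, 78.8 and 294 CPM in the reverse embryos, a coefficient of variation of 64.5%, while the median over 8099 genes was 38.8%. Without reverse embryo 1 it was 48.8% for Aqp8, 51.6% for Aqp3 and 48.4% for Tjp1. Over all 8 embryos Tjp1 had 64.1%, at 114, 53.8 and 59.5 CPM in the forward and 256, 123, 30.0, 152 and 101 CPM in the reverse embryos. Cldn4 was at 674, 495 and 548 CPM in the forward and at 53.8, 430, 980, 565 and 794 CPM in the reverse embryos. Aqp3, at 29.0 to 50.8 CPM in the forward and 36.0 to 117 CPM in the reverse cross, and Aqp9, at 102 to 106 and 68.7 to 226 CPM, were most abundant in reverse embryo 2. Cdh1 was the steadiest of the 8, with a coefficient of variation of 27.9% and 276 to 628 CPM. The ranges of the crosses overlapped in each of these genes.

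**Figure D5:**
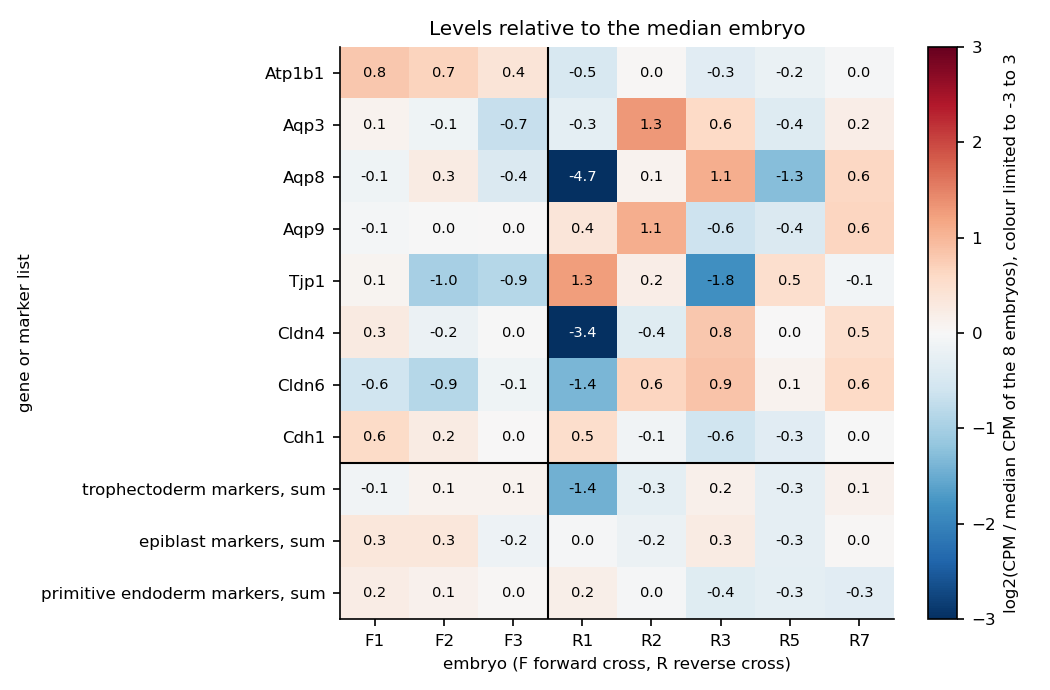
Log2 of the level of each of the 8 genes, and of the summed trophectoderm, epiblast and primitive endoderm markers (rows), relative to the median of the 8 embryos (columns). In reverse embryo 1, Aqp8, Cldn4 and Cldn6 lie at -4.70, -3.37 and -1.37 and the trophectoderm markers at -1.45, while Tjp1 lies at 1.26.

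In reverse embryo 1 the genes of the cavity were not low together. Over all tested genes, this embryo had the lowest level of the 8 for 23.5% and the highest for 33.9%. Of the 9 tested claudins, 5 were at their lowest there and 2 at their highest, Cldn12 and Cldn18. Cldn7 was at 1.33 CPM, against 50.8 to 109 CPM in the other embryos, and Cldn3 at 6.64 CPM, against 28.8 to 290 CPM. Of the 17 tested scaffold and membrane genes, 9 were at their highest and 2 at their lowest, the former with Tjp1 and Magi1, and of the 17 adherens junction genes 8 were at their highest, with Ctnna1, Ctnnb1 and Vcl, and 2 at their lowest. The pump list was divided, with 5 of 10 at their lowest, Atp1b1 and Fxyd4 included, and 2 at their highest, Atp1b3 among them. These genes were picked after their values were seen. The summed trophectoderm markers were low in this embryo together with Aqp8, Cldn4 and Cldn6, and 6 of the 11 markers were at their lowest there, Krt8 and Krt18 among them. Tead4 (387 CPM, against 191 to 300 CPM in the other embryos) and Tfap2c (84.4 CPM, against 27.4 to 81.1 CPM) were at their highest, and the part of trophectoderm in these levels was not tested.

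For each gene with at least 20 reads in every embryo, the gene with the most similar level across the 8 embryos was looked up among 5608 genes. By the Pearson correlation of log2(CPM + 1) these were Plet1 for Cldn4 (r = 0.995), Slc46a1 for Cldn6 (r = 0.981), Recql for Tjp1 (r = 0.977), Abca3 for Cdh1 (r = 0.987), Ssh1 for Atp1b1 (r = 0.976), LOC108168367 for Aqp9 (r = 0.940) and Myo7a for Aqp3 (r = 0.883). Aqp8 was left out with its 11 reads in reverse embryo 1. Each value is the highest of many over 8 points that include reverse embryo 1, and it is given as a description. For Cldn4, 309 genes had a correlation above 0.9, and for Aqp3 there were 0.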

How the data were processed

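Single blastocysts were lysed and their polyA RNA was sequenced by SMART-Seq2. Per the submitters' processing notes and the study's methods, the authors aligned reads to mm10 with STAR (version 2.5.2b in the notes), handled them with SAMtools 1.9-92 and bedtools, left out reads with several alignments, and assigned reads that span a B6 or cast SNP to an allele. The deposited values are whole-number counts per gene and allele, without normalisation, and the authors had left out embryos 4 and 6 of the reverse cross. Counts cover only reads over SNPs, so levels depend on SNP number. Sequence differences can also favour reads of the reference strain B6.

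Paternal with maternal and cast with B6 alleles were compared in 1 edgeR 4.0.16 quasi-likelihood model (R 4.3.3, limma 3.58.1, TMM factors) on 16 allele libraries of 8 embryos, with Benjamini-Hochberg adjustment over 12565 autosomal genes with at least 10 reads in at least 1 library, and values are log2 fold changes ± SE. X-linked genes and 1110 genes that matched no chromosome were not tested. Equivalence used 2 one-sided tests against a log2 fold change of 1. Levels of both alleles were compared between crosses in a second edgeR model. DESeq2 1.42.0 was an alternative. The 2 alleles of an embryo come from the same lysate, and their deviations from the group means correlated at 0.0609 to 0.601, so results with a term for each embryo are given where they change a call. CPM are a gene's share of the SNP-spanning reads of an embryo, times 1e6. Exact Clopper-Pearson intervals (scipy 1.17.1) cover counting error only, since amplified reads without molecular identifiers are not independent molecules. The sources used here do not give the litter of an embryo, so p-values cover these embryos only. In the main model they rest on the spread of the 16 allele libraries, 2 from each embryo. With embryo terms they rest on the spread of allele ratios, and between crosses on the spread of embryo totals.

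Named genes were the 8 genes, up to 6 called genes per list and comparison, the partners Atp1b3, Ocln, Ctnnb1 and Ctnna1, and the gene of most similar level. The genes and lists were chosen with earlier results of these data known. Some genes that this rule names are not reported here. The scripts were tested on simulated data.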

Additional observations from a re-analysis of the deposited data

Results flagged for a closer look

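For 3 genes the paternal over maternal difference changed between the forward and the reverse cross, which the strain term of the edgeR model tests. The size of that term was -1.66 for Aqp3 (edgeR adjusted p = 0.0205), 2.78 for Cldn4 (edgeR adjusted p = 0.000299) and 2.50 for Cldn6 (edgeR adjusted p = 0.000686). In the forward cross the paternal allele of Cldn4 and Cldn6 was the higher one in 3 of 3 embryos, and in the reverse cross the maternal allele was in 5 of 5.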

How the results depend on the processing

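The strain calls of Cldn4 and Cldn6 held in all 15 alternatives and that of Aqp3 in 13 of 15, while Atp1b1, Aqp8 and Tjp1 gained a call in 2, 5 and 1 of 15. Genes called for parent (179) were 406 with no filter, 75 with 10 reads in every embryo, 306 with the other quasi-likelihood setting and 389 with the replicate block, a term for each embryo, which called 1 of the 8 genes. Leaving out 1 embryo gave 120 to 195 genes and 0 of the 8. Genes called for strain (1947) were 1066 with 10 reads in every embryo, 3208 with the replicate block (6 of the 8 genes) and 1206 to 2453 leaving out 1 embryo (2 to 4 of the 8). Equivalent genes (4475) fell to 0 at a margin of 1.5-fold, where 0 of the 8 passed, and ranged from 1615 to 5660 leaving out 1 embryo (1 to 5 of the 8). Of the 8 genes, 6 were equivalent with the replicate block, against 45.3% of all genes. With no filter 6 were, and with 10 reads in every embryo 5. Both of these filters change which genes are tested. Their shares over all genes are not given here, so these counts are not compared with all genes. Genes called between crosses (13) were 143 with no filter, 0 with 10 reads in every embryo, 28 with the other quasi-likelihood setting, 130 by DESeq2, and 3 to 163 leaving out 1 embryo (0 to 1 of the 8). The highest count came without reverse embryo 1.

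Values near 0 changed sign. For parent, Aqp9 ranged from -0.30 to 0.18 leaving out 1 embryo (0.00366 without forward embryo 1, 0.18 without forward embryo 2, 0.08 without reverse embryo 1 and 0.00561 without reverse embryo 5), Cldn4 from -0.15 to 0.08 (0.0445 without forward embryo 1 and 0.0772 without reverse embryo 3) with 0.0106 in the replicate block, and Cdh1 from -0.0075 to 0.0641. For strain, Aqp9 ranged from -0.38 to 0.0876, the latter without forward embryo 2, and Cdh1 -0.24 with 1 library size per embryo. That setting moved the median over all genes from -0.06 to -0.39, and it called Atp1b1 at -1.16 (edgeR adjusted p = 0.0522). Between crosses, Aqp8 ranged from -0.31 without reverse embryo 3 to 0.56, and Cldn4 from -0.32 to 0.38. Cldn4 was -0.02 without forward embryo 2, -0.32 without reverse embryo 3 and -0.04 without reverse embryo 7. With embryo number as a replicate block over embryos 1 to 3, Aqp8 was -0.65 and Cldn4 -0.80. Embryos with the same number in the 2 crosses correlated at 0.247, 0.0306 and 0.247 and share only a number. The cause of these changes was not tested. Low reads limit Aqp8, Atp1b1, Aqp3 and Cldn6, for which an allele had as few as 1 to 6 reads in an embryo.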
